A study of Drosophila melanogaster with 4 samples.

Results

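POF is an RNA-binding protein that coats the small chromosome 4 of Drosophila melanogaster. The regions described here are all clusters of POF enrichment that the deposited lists place on chromosome 4, namely 157 of 20574 clusters in the combined list, 28 of 6433 in the list of ChIP replicate 1 and 91 of 5786 in that of ChIP replicate 2. They were taken by chromosome name alone, without regard to length or score, and regions of depletion were left out. The libraries came from 3rd instar larvae of the wild-type strain Oregon-R, with no further allele or treatment. The titles of the 2 ChIP libraries name the antibody MO 459, and the description of ChIP replicate 1 gives it as a rabbit polyclonal antibody raised against residues 1 to 150 of POF. The other 2 libraries are titled as input. The descriptions conflict with the titles for ChIP replicate 2, described only as input DNA, and for input replicate 1, described with the antibody. An exchange of these libraries was not tested, and every value of replicate 2 rests on its title. Values of the combined list, by its label a set of both replicates, rest on it too. The input used for each list was not given, so the conflict over input replicate 1 may also reach ChIP replicate 1. No list of an input library was analysed here. No label names a tissue, so no cluster is assigned to a cell type.

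In flies, chromosome 4 is known for carrying marks of heterochromatin such as HP1a while its genes are expressed at ordinary levels. POF is known to bind the transcribed genes of this chromosome and to raise their output slightly, and it is studied beside the complex that compensates the dose of the X chromosome in males. Bound genes lie between repeat-rich stretches, so the layout of enrichment along the chromosome can be described as runs of clusters and the spaces between them. The genome sequence and gene models of FlyBase release 5 were not used here, so no cluster is assigned to a gene and no sequence is shown. Positions are those of FlyBase release 5, in which the left end of the sequence faces the centromere and the right end faces the telomere.

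The replicate lists stood apart on this chromosome. Replicate 1 held 2.07 clusters per 100000 bp of chromosome 4, below each of the other 5 arms (3.24 to 6.21). Replicate 2 held 6.73 clusters per 100000 bp, above each of them (4.20 to 5.57). The combined list held 11.6, again below each of the other arms (13.6 to 18.8). By bases, however, its clusters covered 31.3% of chromosome 4, inside the range of the other arms (26.2% to 36.8%). Its median cluster length there was 1754 bp, above each of them (1488 to 1577 bp). Every value below is therefore given for each list apart, and the combined list, by its label a set of both replicates, is not a further replicate.

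**Figure D1:**
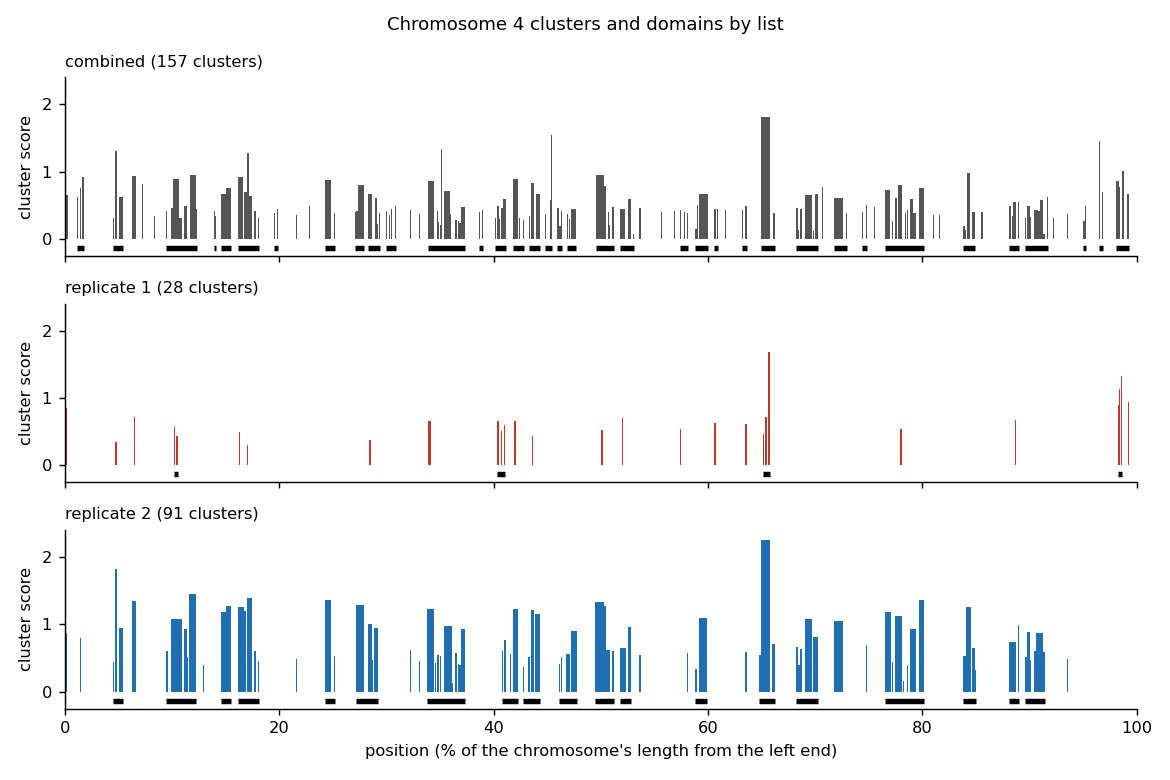
Clusters along chromosome 4 in the 3 lists, drawn to scale. The horizontal axis is the position in percent of the chromosome's length, the height of a bar is the cluster's score, its width is the cluster's length, and black lines mark domains of 2 or more clusters. Replicate 2 shows 19 such domains and no cluster near the right end, where replicate 1 has 4 of its 5 highest scores.

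The gap between neighbouring clusters, counted in bases from the end of one to the start of the next, was short in replicate 2 and long in replicate 1. The 90 gaps of replicate 2 ran from 7 to 58786 bp, with a median of 2667 bp and quartiles of 941 and 10504 bp. The 27 gaps of replicate 1 ran from 142 to 164462 bp, with a median of 24464 bp and quartiles of 5058 and 74371 bp. The 156 gaps of the combined list ran from 0 to 36231 bp, with a median of 2908 bp and quartiles of 710 and 8384 bp. The replicate medians differed 9.17-fold, and their mean was 13566 bp ± 15413 (SD, n = 2). No mean over the libraries therefore describes the spacing on this chromosome.

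The direction against the rest of the genome was opposite in the replicate lists. In replicate 2 the median gap on chromosome 4 was 0.35 times the 7620 bp of the other arms pooled, and no single arm came below 6776 bp. In replicate 1 it was 2.56 times the 9573 bp of the other arms, where the highest single arm stood at 14924 bp. For the combined list the median of 2908 bp lay just above the range of the single arms, 1899 to 2751 bp. The log2 ratio of chromosome 4 to the other arms averaged -0.080 ± 2.03 (SD, n = 2) over the replicates (two-sided exact sign-flip test, p = 1, where 2 replicates cannot give less than 0.5). The mean difference in median gap from the other arms thus did not exceed the spread between the libraries.

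The difference in replicate 2 held for short and long gaps alike. The 10th percentile of its gaps was 431 bp, against 679 to 817 bp on the other arms. The 90th percentile was 34907 bp, against 41481 to 58135 bp. Of the replicate 2 gaps on chromosome 4, 59 of 90 (65.6%) were at most 5000 bp, against 37.5% to 41.6% on the other arms. The share at most 1000 bp was 26.7%, against 12.4% to 13.4%. In replicate 1, 7 of 27 gaps (25.9%) were at most 5000 bp, inside the range of the other arms (22.2% to 36.2%). The combined list stood at 101 of 156 (64.7%), just below that range (66.3% to 79.4%). Neighbouring clusters abutted without a base between them at 2 places on chromosome 4 in the combined list, behind the clusters ending at 393761 and at 1134574. No abutting clusters occurred there in either replicate list.

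**Figure D2:**
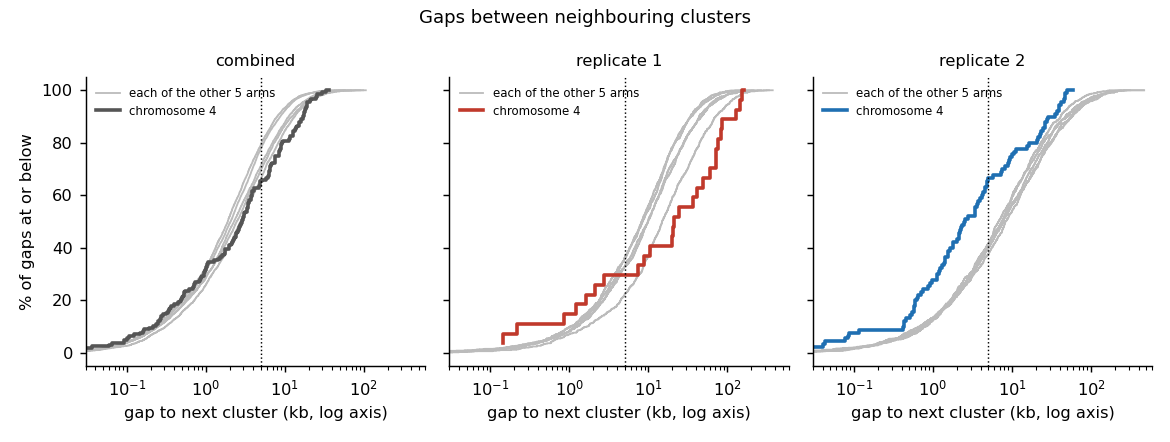
Cumulative distribution of gaps between neighbouring clusters, with the gap in kb on a log axis and the percentage of gaps at or below it. The thick line is chromosome 4, thin grey lines are the other 5 arms, and the dotted line marks 5 kb. The line of chromosome 4 lies to the left of all other arms in replicate 2 (median 2667 bp) and mostly to the right of them in replicate 1 (median 24464 bp).

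The number of clusters differs between the lists. When each list was reduced to its 28 highest-scoring clusters of the chromosome, a count chosen after the data were seen because replicate 1 has 28, the median gap of replicate 2 was 27623 bp, that of replicate 1, which cannot change, was 24464 bp and that of the combined list was 21324 bp. A fixed number of clusters on 1 chromosome by itself sets the average gap to nearly the same length in each list, so the closeness of these medians says nothing about the lists. The reduced lists formed 23 domains in the combined list, 22 in replicate 2 and, as deposited, 21 in replicate 1. The same limit holds for these counts.

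The unevenness of spacing can be set against the average gap, which takes out the overall density. The coefficient of variation of the gaps on chromosome 4 was 1.46 in replicate 2, 1.07 in replicate 1 and 1.24 in the combined list. On the other arms it was 1.49 to 1.85, 1.22 to 1.43 and 1.28 to 1.44 in the same order. Chromosome 4 had the lowest value of the 6 arms in each list. The ratio to the other arms pooled averaged 0.82 ± 0.08 (SD, n = 2) over the replicates (exact sign-flip test on the log2 ratio, p = 0.5, the smallest that 2 replicates allow). Chromosome 4 also has by far the fewest gaps, and its effect on this coefficient was not tested.

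Gaps over 20000 bp numbered 19 on chromosome 4 in replicate 2, 16 in replicate 1 and 8 in the combined list. They took up 49.0% of chromosome 4 in replicate 2, against 60.8% to 73.0% of the other arms. They took up 91.1% in replicate 1, against 53.8% to 78.0%, and 16.02% in the combined list, within the range of the other arms (6.78% to 20.1%).

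Clusters were chained into domains wherever neighbours lay at most 5000 bp apart. Replicate 2 formed 32 domains, of which 19 held 2 or more clusters and 13 were single clusters. Replicate 1 formed 21 domains, 4 of them with 2 or more clusters. The combined list formed 56, with 36 of 2 or more. Of the clusters, 78 of 91 (85.7%) lay in such a multiple domain in replicate 2, 11 of 28 (39.3%) in replicate 1 and 137 of 157 (87.3%) in the combined list. The other arms ran from 57.4% to 63.9% in replicate 2, from 39.5% to 58.4% in replicate 1 and from 85.6% to 93.8% in the combined list.

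Domains of replicate 2 were long on chromosome 4 rather than numerous. Per 100000 bp there were 2.37 domains, fewer than on any other arm (2.53 to 3.28), but each held 2.84 clusters on average against 1.60 to 1.71. Their median length was 13097 bp, against 2187 to 2494 bp on the other arms. Domains of at least 20000 bp numbered 11 and took up 24.4% of chromosome 4, against 1.87% to 3.13% of the other arms. These long domains depend on the chaining distance. With gaps of at most 1000 or 2000 bp inside a domain, the longest of replicate 2 on chromosome 4 was 19430 bp and that of the combined list 17566 bp, so none reached 20000 bp. Domains of that length were not counted on the other arms at these distances. At 5000 bp, no domain of replicate 1 on chromosome 4 reached 20000 bp, and such domains took up 0.096% to 1.35% of the other arms. The combined list had 7 of them, with 17.8% of the chromosome, below the 19.7% to 42.5% of the other arms.

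All domains together, with the short gaps inside them, spanned 35.6% of chromosome 4 in replicate 2, 4.58% in replicate 1 and 43.5% in the combined list. The pooled other arms stood at 14.3%, 12.8% and 51.4%. The log2 ratio averaged -0.081 ± 1.97 (SD, n = 2) over the replicates (two-sided exact sign-flip test, p = 1). With single clusters counted as domains, those on chromosome 4 were filled more densely than elsewhere in all 3 lists. Their bases lay inside clusters to 78.4% in replicate 2 (other arms 71.9% to 75.1%), to 85.6% in replicate 1 (68.6% to 77.8%) and to 72.1% in the combined list (58.2% to 62.4%). A single cluster fills its domain wholly, and 17 of the 21 domains of replicate 1 on chromosome 4 were single clusters. Median cluster length on chromosome 4 was also above each of the other arms in every list. It was 2736 bp in replicate 2 (1922 to 2012 bp) and 1822.5 bp in replicate 1 (1567 to 1629.5 bp). In the combined list it was 1754 bp (1488 to 1577 bp). The share in domains of 2 or more clusters was not taken, and the difference in filling was not tested. How far cluster length accounts for the filling was not tested either.

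**Figure D3:**
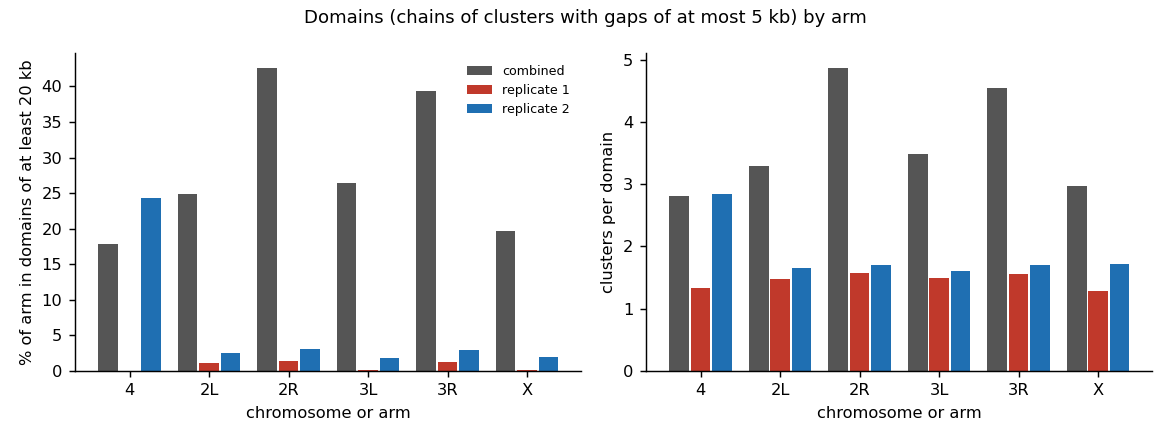
Share of each arm taken up by domains of at least 20 kb (left) and clusters per domain (right), with 1 bar for each list. In replicate 2, chromosome 4 reaches 24.4% and 2.84 clusters per domain, and the other arms reach at most 3.13% and 1.71, all with domains chained at 5000 bp. At 1000 or 2000 bp the longest domain of chromosome 4 in replicate 2 was 19430 bp, so its bar on the left would be at 0. The bars of the other arms were not taken at these distances. For domains of any length, coverage in replicate 2 was 2.65 and 2.63 times that of the other arms pooled, against 2.49 at 5000 bp.

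The 5 longest domains of replicate 2 held 31 of its 91 clusters and 14.02% of the chromosome. The longest spanned 1034215 to 1083194 (48980 bp) with 7 clusters whose scores ran from 0.17 to 1.37. The second spanned 457365 to 504360 (46996 bp) with 10 clusters, the most of any domain in this list, and scores from 0.14 to 1.23. It opened with its cluster of highest score, 8602 bp long, followed after 618 bp by a cluster of 1403 bp with a score of 0.43. High and low scores thus stood side by side inside 1 domain.

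Next in length was 127590 to 165203 (37614 bp) with 5 clusters, among them the longest cluster of the chromosome. The fourth, at 367402 to 395456 (28055 bp), held 4 clusters, and the fifth, at 921510 to 949396 (27887 bp), held 5. Replicate 2 clusters filled between 70.3% and 78.6% of these 5 domains. They were picked in replicate 2, so their high coverage in that list is no finding. The combined list covered 66.2% to 70.7% of the same stretches.

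Replicate 1 had few clusters in these same 5 stretches, as on the whole chromosome, of which it covered 3.92%. It held 2 clusters in the domain at 127590, 1 each in those at 1034215, 457365 and 367402, and none in that at 921510. The covered shares were 8.45%, 4.06%, 9.55%, 5.76% and 0% in the same order, all but the last above that of the whole chromosome. Its highest score there was 0.66, at 457782 to 462271, which is also the longest cluster of replicate 1 on the chromosome (4490 bp).

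The combined list had 4 of its 5 longest domains at nearly the same places. Its longest ran from 1034318 to 1083098 (48781 bp, 9 clusters), followed by 457468 to 504299 (46832 bp, 11 clusters) and 127539 to 167402 (39864 bp, 7 clusters). The fourth, at 1211327 to 1239206 (27880 bp, 9 clusters), matched a replicate 2 domain of 24377 bp. The fifth ran from 921544 to 949222 (27679 bp, 6 clusters). Replicate 1 had no cluster in the fourth or the fifth.

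Domains of replicate 1 were of another order of size. The longest ran from 545410 to 555616 (10207 bp) and held 3 clusters with scores from 0.52 to 0.66. Replicate 2 covered 34.1% of it and the combined list 82.4%. The second, at 880582 to 888836 (8255 bp), held 3 clusters that all lay inside 1 replicate 2 cluster. The third, at 1327586 to 1333229 (5644 bp), held 3 clusters with scores from 0.90 to 1.33 and had no replicate 2 cluster. The fourth was the single cluster at 457782, and the fifth, at 138267 to 142668 (4402 bp), held 2 clusters inside the longest replicate 2 cluster.

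Overlap of domains was counted on chromosome 4 only, where replicate 2 clusters covered 27.9% of the sequence and replicate 1 clusters 3.92%. The shares each way depend on these unlike list sizes. Replicate 2 clusters reached 17 of the 21 domains of replicate 1 (81.0%). Replicate 1 clusters reached 15 of the 32 domains of replicate 2 (46.9%). The share was 12 of 19 among domains of 2 or more clusters and 3 of 13 among single clusters, although a long domain is touched more readily than a short one. The combined list touched all 21 domains of replicate 1 and 31 of 32 of replicate 2, the exception being the single cluster at 174708 to 176023 (score 0.40).

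Stretches without clusters were compared in the same way. The 5 longest gaps of replicate 2 ran from 726105 to 784890 (58786 bp), from 1083195 to 1132987 (49793 bp), from 810393 to 857783 (47391 bp), from 504361 to 550914 (46554 bp) and from 245349 to 291217 (45869 bp). Replicate 1 had 1 cluster in the gap at 726105, 2 each in or at the edge of those at 810393 and 504361, and none in those at 1083195 and 245349. The combined list had clusters in all 5, covering from 4.54% of the gap at 1083195 to 18.3% of that at 504361.

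The 5 longest gaps of replicate 1 ran from 888837 to 1053298 (164462 bp), from 231628 to 384244 (152617 bp), from 1055286 to 1197764 (142479 bp), from 1199902 to 1327585 (127684 bp) and from 590227 to 676623 (86397 bp). None was empty in replicate 2. It placed 12, 8, 10, 8 and 7 clusters in or at the edge of these gaps, in the order given, and covered 32.6%, 21.6%, 26.8%, 18.2% and 35.1% of them. Of the whole chromosome it covered 27.9%, so these shares lay on both sides of its average. The first, the third and the fourth of these gaps followed each other, with only the clusters at 1053299 and 1197765 between them, so replicate 1 was nearly bare from 888837 to 1327585.

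In the combined list the longest gaps ran from 24236 to 60466 (36231 bp), from 1157882 to 1191187 (33306 bp), from 1103883 to 1133041 (29159 bp), from 340533 to 366137 (25605 bp) and from 726161 to 751367 (25207 bp). No replicate 1 cluster entered any of them. Replicate 2 clusters reached over their edges at most, covering between 0% and 1.63%. The gap at 1103883 shared 29105 bp with the gap of replicate 2 at 1083195 and lay wholly in that of replicate 1 at 1055286, and so was free of clusters in every list apart from its edge.

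The ends of the chromosome differed. At the left end the first cluster started at 1764 in the combined list, at 1728 in replicate 1 and at 2136 in replicate 2, with scores of 0.66, 0.85 and 0.88, so all 3 lists began at the same place. At the right end replicate 2 stopped with a cluster at 1263285 to 1264921 (score 0.48) and left 86936 bp bare, more than its longest internal gap. Replicate 1 had its last cluster at 1340619 to 1342112 and the combined list at 1339139 to 1342414.

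The right end held 4 clusters of replicate 1, at 1327586, 1329668, 1331858 and 1340619. Their scores of 0.90, 1.13, 1.33 and 0.95 ranked 5, 3, 2 and 4 in that list on the chromosome. Within the list they lay between percentiles 97.8 and 99.8 of all arm scores. The combined list had 8 clusters in the same stretch, covering 17.6% of it, with scores from 0.27 to 1.46. Its cluster at 1303996 to 1305024, with the highest of these scores, was touched by neither replicate. The replicate 1 cluster at 1331858 to 1333229, second in score in its own list, was the only one of the 28 without a counterpart in the combined list.

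Other replicate 1 clusters mostly sat inside replicate 2 clusters. Of 28, 17 lay wholly inside a single replicate 2 cluster, 4 overlapped one in part and 7 were not touched. Replicate 2 clusters covered 27.9% of chromosome 4, against 9.48% to 12.1% of the other arms, where this overlap was not counted. Besides the 4 at the right end, the untouched ones were 545410 to 547444 (score 0.66), 776162 to 777608 (0.55) and 819009 to 820941 (0.63). They stood 3470, 7282 and 8616 bp from the nearest replicate 2 cluster, and each had a counterpart in the combined list. Whether the lists share a scale of scores is unknown, so scores are not compared across lists.

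Replicate 2 boundaries on chromosome 4 were close to those of the combined list. Of its 91 clusters on chromosome 4, 68 met exactly 1 combined cluster, 11 met 2, 3 met 3 and 9 met none. Combined clusters covered 31.3% of the chromosome. Matches were not counted on the other arms, so whether this closeness is that of the whole list is unknown. For the 68, the starts differed by a median of 107.5 bp and the ends by 120.5 bp, and in 43 the replicate 2 cluster enclosed the combined one. For the 27 replicate 1 clusters that met 1 combined cluster, the medians were 1255 and 767 bp, and 24 lay inside the combined cluster. The 9 unmatched replicate 2 clusters were between 1303 and 1658 bp long, with scores of 0.14 to 0.56. Since the lists share their libraries, this closeness is not independent support for replicate 2.

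Length and score went together in replicate 2 on chromosome 4. Spearman's rho across its 91 clusters was 0.79, against 0.60 to 0.68 on the other arms. It was 0.46 over 157 clusters in the combined list (other arms 0.13 to 0.22) and 0.05 over 28 in replicate 1 (0.26 to 0.41). Clusters of 1 list share their library and caller, so these coefficients describe the lists and carry no test. Among clusters of at least 2000 bp, a limit added once the data were known, rho was 0.52 over 56 clusters of replicate 2, 0.51 over 67 of the combined list and 0.17 over 8 of replicate 1.

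In replicate 2, clusters of up to 2000 bp numbered 35, with a median score of 0.48, and held 14.49% of the clustered bases. The 21 clusters above 2000 and up to 4000 bp had a median score of 0.65. The 22 above 4000 and up to 8000 bp had a median of 1.17 and held 35.0% of the clustered bases, and the 13 above 8000 bp had 1.10 and held 34.5%. Median scores were thus higher in longer classes up to 8000 bp and no higher beyond. In replicate 1, 20 of 28 clusters were at most 2000 bp long and none was above 8000 bp.

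The longest clusters of replicate 2 were at 134239 (13532 bp, score 1.09), 877403 (12232 bp, 2.26), 970228 (11332 bp, 1.06), 799346 (11047 bp, 1.10) and 668725 (10904 bp, 1.34). Only that at 877403 was also among the 5 of highest score. The others of highest score were at 63402 (1.83), 157317 (1.45), 229657 (1.40) and 327639 (1.37). The cluster at 63402 departed from the link of length and score, being 2137 bp long with the second-highest score. In the combined list the longest were at 877822 (11693 bp, score 1.81), 970286 (11115 bp, 0.60), 800182 (10382 bp, 0.66), 669958 (9569 bp, 0.95) and 933992 (8505 bp, 0.65).

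High scores of the combined list fell partly on short clusters that no replicate list contains. Its 5 highest scores were at 877822 (1.81), 613491 (1.54, 1318 bp long), 1303996 (1.46, 1029 bp), 474614 (1.33, 1131 bp) and 63409 (1.30, 2086 bp). The clusters at 613491, 1303996 and 474614 were touched by neither replicate. Those at 877822 and 63409 were touched by both. The cluster at 474614 began on the base after a replicate 2 cluster that ended at 474613, in a gap inside the domain of that list at 457365.

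**Figure D4:**
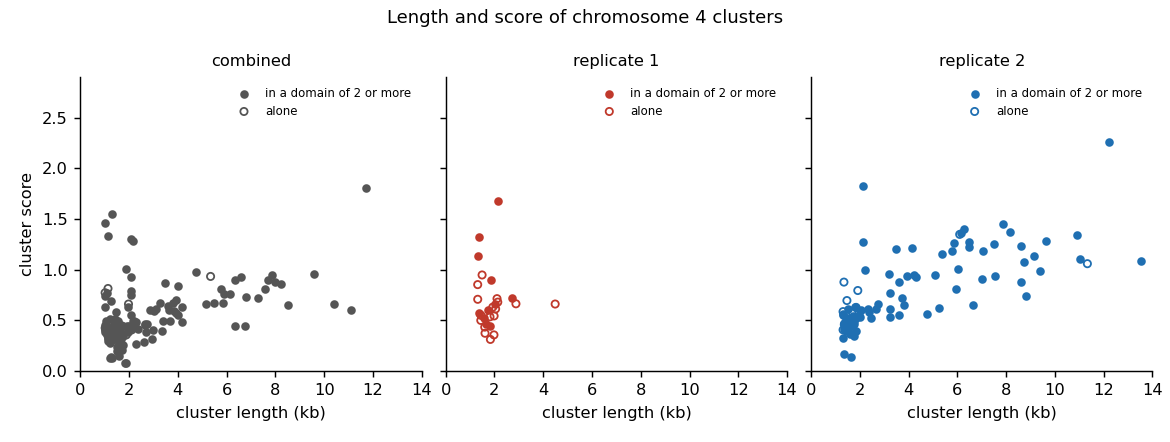
Score against length in kb for every chromosome 4 cluster of each list, with filled points for clusters in a domain of 2 or more and open points for single clusters. Scores rise with length in replicate 2 (rho 0.79), less so in the combined list (0.46), and show no such pattern in replicate 1 (0.05).

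In replicate 1 the longest clusters after that at 457782 were at 565972 (2882 bp), 882364 (2717 bp), 886688 (2149 bp) and 1197765 (2137 bp). The highest score of that list, 1.68, belonged to 886688 to 888836, inside the region that leads both other lists. The same region in replicate 1 was broken into 3 clusters with gaps of 142 and 1607 bp. That at 880582 scored 0.47 and that at 882364 scored 0.72.

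Clusters in multiple domains were compared with clusters on their own, since domains were formed from spacing alone. In replicate 2 the medians were 3370 bp and a score of 0.69 for the 78 clusters in domains, and 1637 bp and 0.59 for the 13 single ones. On the other arms of the list the same medians were 2042 against 1871 bp and 0.63 against 0.60. On chromosome 4 the values of the combined list were 1940 against 1459 bp and 0.45 against 0.42. In replicate 1 they were 1756 against 1835 bp and 0.66 against 0.61, with 11 and 17 clusters. The 2 longest single clusters of replicate 2, at 970228 (11332 bp) and 84276 (6097 bp, score 1.35), were nonetheless long, with no neighbour within 5000 bp.

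Neighbouring clusters did not resemble each other in replicate 2. Across neighbours on chromosome 4, rho was -0.20 for length and -0.09 for score, and on the other arms 0.01 to 0.04 and -0.01 to 0.08. In replicate 1 it was 0.14 for length and 0.25 for score over 27 pairs of neighbours, and in the combined list 0.13 for each. These are weak coefficients and are given as description.

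Along the chromosome, coverage in replicate 2 was even but for the right end. By 5 equal parts from left to right, its clusters covered 30.5%, 27.1%, 32.3%, 31.8% and 17.7% of the sequence, with 19, 19, 22, 18 and 13 clusters. In the combined list the shares were 32.9%, 28.9%, 37.3%, 34.1% and 23.4%, with 30, 30, 37, 30 and 30 clusters. In replicate 1 they were 4.38%, 2.26%, 5.33%, 4.61% and 3.03%, with 7, 2, 8, 6 and 5 clusters. The middle part was the most covered in all 3 lists.

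Median scores were highest at opposite ends in the replicate lists. In replicate 2 the median fell from 0.95 in the first part to 0.55 in the second and stood at 0.62, 0.70 and 0.60 in the remaining parts. In the combined list the first part was likewise highest at 0.64, and the other parts lay between 0.41 and 0.45. This spread of 0.22 between the highest and the lowest part was 0.064 when the chromosome was divided into 3 parts. In replicate 1 the medians were 0.50, 0.52, 0.57, 0.62 and 0.95, a spread of 0.45. The spread was 0.059 among its clusters of at least 2000 bp, but only 8 reach that length and none of them lies in the bare right end of replicate 2. Spearman's rho of score with position was 0.53 over the 28 clusters of replicate 1, -0.15 over the 91 of replicate 2 and -0.10 over the 157 of the combined list. Without the stretch beyond the last replicate 2 cluster, left out once the data were known, it was 0.27 over 24 clusters in replicate 1 and -0.19 over 149 in the combined list, so the value in replicate 1 rests in good part on its 4 clusters at the right end.

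Length varied along the chromosome without a trend. In replicate 2 the median lengths by part were 3489, 2016, 2928, 3235 and 2222 bp, and rho with position was 0.004. The combined list gave 2091, 1592, 1627, 1766 and 1885 bp, with a rho of -0.08. In replicate 1 they were 1827, 3053, 1680, 2018 and 1494 bp, with a rho of 0.05, and the second of these rests on 2 clusters.

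The combined list can be divided by which replicate touched its clusters, and the clusters standing alone were counted in each class. Over the whole list, 20 of 157 stood alone on chromosome 4 and 1863 of 19448 on the other arms. Of the 18 touched by both replicates, 2 (11.1%) stood alone, and of the 81 touched by replicate 2 only, 5 (6.17%) did. Of the 52 touched by neither, 13 (25%) stood alone, and of the 6 touched by replicate 1 only, none did. Their median lengths were 5549 bp for both, 2048 bp for replicate 2 only, 2103 bp for replicate 1 only and 1281 bp for neither. Median scores were 0.85 for both, 0.58 for replicate 1 only, and 0.42 for replicate 2 only and for neither. A longer cluster is more readily touched, so the lengths are partly set by the division. The combined list shares its libraries with the replicate lists. The division was not made on the other arms, and the differences between classes were not tested.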

How the data were processed

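Chromatin of wild-type larvae was profiled by ChIP-seq with 2 POF ChIP and 2 input libraries. Per the submitters' processing notes, Bowtie 0.12.7 was used. Per the file headers, coordinates are of FlyBase release 5, and the chromosome lengths come from there too. The authors deposited a list of clusters per ChIP library and a combined one, each cluster with 1 score. The scale of the score, the caller, its threshold, the input used and the making of the combined list were not given in the sources used here. Scores were therefore ranked and summarised only within a list. Read depth is unknown, so no interval that needs it is given. Groups follow the titles, although 2 descriptions conflict with them: ChIP replicate 2 is described only as input DNA, and input replicate 1 with the antibody. No label says that the replicates came from separate cultures, so their spread may be technical.

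Clusters were sorted, gaps counted, and domains formed at gaps of at most 5000 bp. Overlap needed 1 bp. Chromosome 4 was set against the other arms by exact sign-flip tests over the 2 replicates. All else is description. Named were the end clusters, the 5 longest gaps, domains and clusters and the 5 highest scores of each list, and untouched replicate 1 clusters. Other clusters named were picked with their values in view. The members and measures were chosen with earlier results of these data known. The gene table at hand is of release 6, so no gene was placed. Alternatives were other domain gaps, filters on score and length, merging, other parts of the chromosome and each replicate alone. Python 3.11.15, numpy 2.4.6, pandas 2.3.3 and matplotlib 3.10.9 were used, and the interval code was tested on simulated lists.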

Additional observations from a re-analysis of the deposited data

How the results depend on the processing

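Each replicate kept its direction against the other arms under the settings that can change it, which were 3 for median gaps (both filters and merging) and 5 for domain coverage (3 chaining distances and both filters). With the lists as deposited included, the ratio of median gaps lay between 1.81 and 3.98 in replicate 1 and between 0.283 and 0.588 in replicate 2, and that of domain coverage between 0.296 and 0.536 and between 2.02 and 3.52. The combined list fell on both sides of 1, at 0.775 to 1.56 and 0.818 to 1.42. The mean log2 ratios of the replicates, near 0, therefore changed sign easily. For median gaps (-0.080) the mean was 0.61 when low-scoring clusters, under the median of the list, were dropped and 0.39 after merging within 1000 bp, and 1 replicate alone gave -1.51 or 1.35. For domain coverage (-0.081) it was 0.10 with domain gaps of 1000 bp, 0.093 with 2000 bp, 0.16 with the score filter and 0.46 with clusters of at least 2000 bp, and 1 replicate alone gave -1.48 or 1.31. The exact sign-flip p was 1 wherever both replicates entered.

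Filters leave fewer clusters and so longer gaps. With the score filter the median gap was 7720 bp in the combined list, 83455 bp in replicate 1 and 9632 bp in replicate 2 (replicate mean 46544 bp). With clusters of at least 2000 bp it was 6008, 83138 and 4293 bp (mean 43716 bp), and after merging 5713, 39109 and 4786 bp. The 28 highest scores, an alternative added once the data were known, gave 21324 bp for the combined list and 27623 bp for replicate 2. The mean of the longest gaps, 111624 bp as deposited, was 230286 bp with the score filter and 227524 bp with the length filter. Domains numbered 108, 94 and 32 in the combined list at gaps of 1000, 2000 and 10000 bp, and 67 and 54 in replicate 2 at 1000 and 2000 bp. The replicate mean of 26.5 was 46 at 1000 bp and 17 with the length filter. Replicate 1 formed 10 domains with the score filter and 7 with the length filter, and the combined list 23 from its 28 highest scores. Of the values of lesser results, 27 moved by over 1.5 times and 42 did not. No paired analysis was possible because each test is already a ratio within 1 ChIP list, and the same-numbered inputs have no list analysed here. Depth is unknown, so how many weak clusters went undetected cannot be told.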
